A study of Mus musculus with 30 samples.

Results

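The genes described here are the transcripts encoded by the mitochondrial chromosome, taken as every symbol that starts with mt- in a table of TPM (a level per length of transcript, scaled to the same sum in each library). The rule found 37 of 55291 gene symbols: 13 protein-coding genes, 2 ribosomal RNAs (rRNAs) and 22 transfer RNAs (tRNAs). All 37 have a gene of the same name on chrM in GENCODE M21 (GRCm38/mm10), where 28 lie on the plus strand and 9 on the minus strand. The libraries are 30 mouse RNA-seq libraries from tumours grown under the skin and taken at a length of 10 mm, with 3 libraries for each of 10 tumour lines, and all are labelled as CD45+ immune cells from the tumour. The lines are MC38OVA and its parent by name MC38 (colon carcinoma), EMT6 (mammary carcinoma), LL2 (Lewis lung carcinoma), CT26NYESO1 and its parent by name CT26 (colon carcinoma), CMS5a (fibrosarcoma), Renca (renal carcinoma), and B16F10 and B16F1 (sublines of the B16 melanoma). The labels mention BALB/cJ and C57BL/6J mice and intratumoral OK-432 for 24 hours in some mice, but they tie neither strain nor treatment to a library, and they do not give the animals' age. RNA came from digested tumours with TRIzol, and the libraries from a stranded kit that selects polyadenylated RNA.

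The mammalian mitochondrial chromosome is transcribed from both strands as long precursors, and the tRNAs that lie between the other genes are cut out to free the mRNAs and rRNAs. The 13 mRNAs encode subunits of complexes I, III, IV and V of the respiratory chain, whose remaining subunits, and all of complex II, come from nuclear genes. Most mitochondrial mRNAs carry a short poly(A) tail, whereas the mRNA of mt-Nd6 is known to lack one or nearly so, and mature tRNAs end in CCA. A kit that selects poly(A) RNA therefore sees mRNAs, rRNAs and tRNAs of the mitochondrion through different ends, and TPM of different classes are given here as measured.

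Short stretches of the sequences that bear on how reads can be assigned are shown first, read from the GENCODE M21 transcripts. The 5′ end of mt-Nd3, a subunit of complex I, and of its nuclear copy Gm28438 are set beside each other, with 1 base in capitals. That base is the only mismatch over the 345 bases that align, mt-Nd3 being 348 bases long. The base change is T3C, counted from the first base of mt-Nd3, with the mitochondrial base first.
mt-Nd3 (chrM:9459-9491, plus strand): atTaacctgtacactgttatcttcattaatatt
Gm28438 (chr1:24613087-24613119, minus strand): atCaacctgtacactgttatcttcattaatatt

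A stretch of mt-Co1, the catalytic subunit of complex IV, and of its partial copy Gm29216 likewise differs at 1 base in capitals, A1066T counted from the first base of mt-Co1. It is the only mismatch over the 483 bases that align.
mt-Co1 (chrM:6390-6423, plus strand): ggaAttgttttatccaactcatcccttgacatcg
Gm29216 (chr1:24616155-24616188, minus strand): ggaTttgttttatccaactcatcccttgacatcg

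The 43 bases that mt-Atp8 and mt-Atp6 share on the same strand are shown because a read inside them fits both genes. Capitals mark the start codon of mt-Atp6.
mt-Atp8 and mt-Atp6 overlap (chrM:7927-7969, plus strand): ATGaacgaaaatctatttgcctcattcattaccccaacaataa

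mt-Ts1 and mt-Te had the highest TPM of the 22 tRNAs and lie on the minus strand. Capitals in mt-Ts1 mark the 3 bases that overlap the end of mt-Co1 on the other strand.
mt-Ts1 (chrM:6870-6938, minus strand): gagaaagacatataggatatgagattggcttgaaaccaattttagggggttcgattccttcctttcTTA
mt-Te (chrM:14071-14139, minus strand): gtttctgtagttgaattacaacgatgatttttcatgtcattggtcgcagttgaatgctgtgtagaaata

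The test was limma on log2(TPM + 1) over the 17944 genes that reached 1 TPM in 3 libraries or more, among them all 37 mitochondrial genes. Calls needed an adjusted p (Benjamini-Hochberg) below 0.05 together with a log2 fold change of 1 or beyond in either direction. Each line was set against the mean of the other 9 line means, so the comparisons share libraries and are not independent of each other. Fold changes are given with their standard error (SE). The libraries differed in cells other than leukocytes: the summed level of 10 leukocyte genes ranged between 141 and 2628 TPM, and Ptprc, which encodes CD45, between 2.7 and 215 TPM. The lowest values of Ptprc, 2.7 to 17.3 TPM, were those of the B16F10 and B16F1 libraries, with 9.28 TPM in Renca library 1 among them. These 6 B16 libraries also held 1799 to 14141 TPM of 9 melanocyte genes, against 3.97 to 23.5 TPM in the other 24. Whether the mitochondrial RNA came from leukocytes or from other cells was not tested, and in such bulk samples fewer cells of a type and less RNA per cell cannot be told apart.

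The 37 mitochondrial genes together took between 9.17% and 39.0% of the TPM of a library, with a mean of 20.4%. B16F10 had the highest line mean, 27.9% ± 3.24 (SD, n = 3), with 24.4%, 30.8% and 28.6% in its 3 libraries. LL2 came next with 18.3%, 30.9% and 30.3%, so its libraries and those of B16F10 overlapped. EMT6 had the lowest mean, 10.5% ± 1.44 (SD, n = 3), from libraries at 9.17%, 12.0% and 10.4%. The next lowest line means, 15.2% in both CT26NYESO1 and CT26, came from libraries between 11.03% and 19.0%, and CT26 library 1 at 11.03% lay within the EMT6 range. B16F1 spanned most of the range of the series on its own, with 12.1%, 39.0% and 18.6%, and MC38 had 13.8%, 14.3% and 27.5%, so a mean of either line rests on unlike libraries. Renca had 15.5%, 27.1% and 25.8%, MC38OVA 25.8%, 20.9% and 21.6%, and CMS5a 21.6%, 18.1% and 22.4%. With 3 libraries in each line and SDs of 1.42 to 14.0 percentage points, most neighbouring line means differed by less than their spread.

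Protein-coding genes made up nearly all of this share. They took 8.26% to 36.9% of TPM, the tRNA genes 0.445% to 1.83% and the rRNA genes 0.0514% to 1.20%. The rRNA share was highest in B16F10, at 0.412%, 1.20% and 0.605%, and lowest in B16F1, at 0.0514%, 0.263% and 0.135%, and these 2 lines did not overlap. The tRNA share was highest in Renca, at 1.70%, 1.44% and 1.09%, which overlapped with other lines. Between 7 and 13 of the 20 genes with the highest TPM in each library were mitochondrial.

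**Figure D1:**
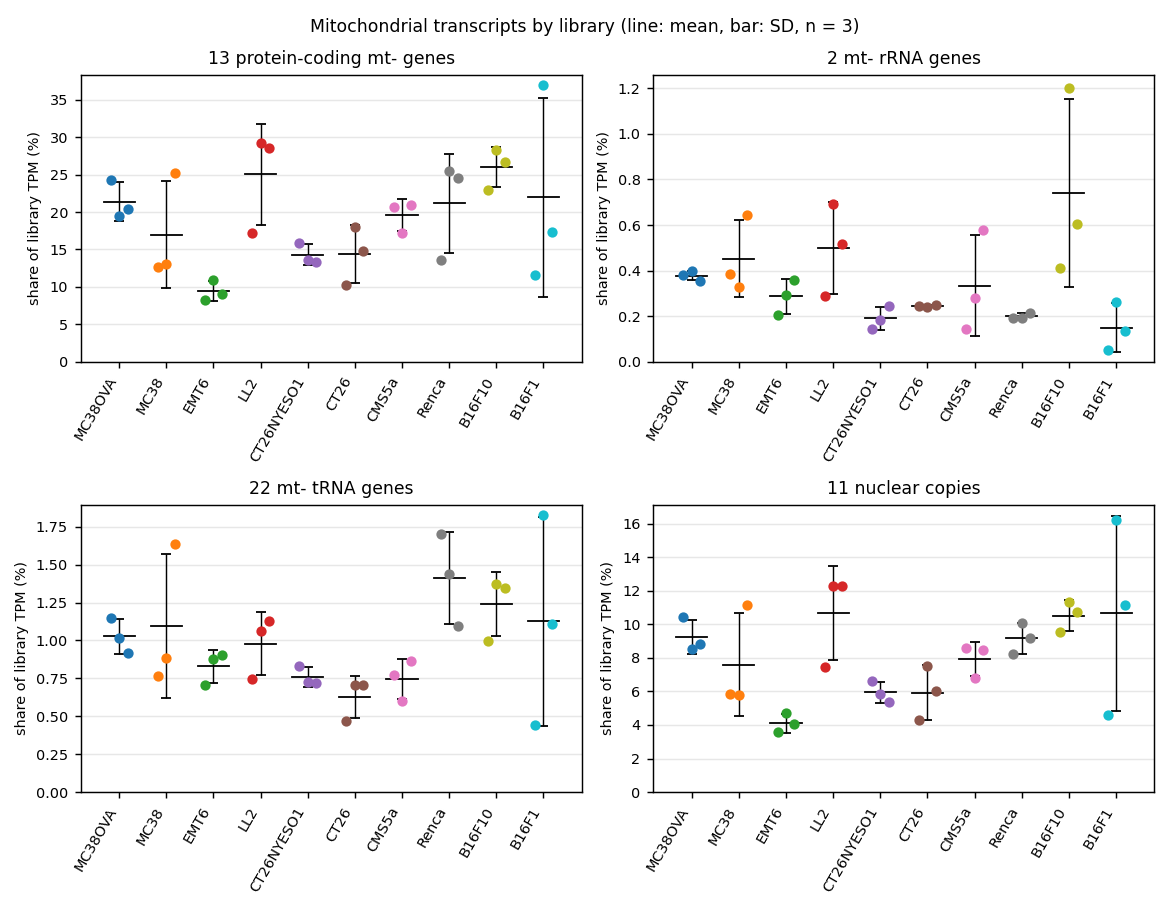
Share of library TPM in percent for the 13 protein-coding, 2 rRNA and 22 tRNA genes and for 11 nuclear copies of mitochondrial sequence, by line; points are libraries, horizontal lines are means and bars are SD (n = 3). EMT6 libraries are low and close together for the protein-coding genes, while the B16F1 libraries spread between 11.6% and 36.9%.

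A further share of each library stood under gene symbols of nuclear pseudogenes that repeat mitochondrial sequence. A search of the GENCODE M21 transcripts found 11 such copies at 95% identity or more over at least 90% of their length. Of these, 7 lie side by side on the minus strand of chr1:24611535-24616197, matching chrM:6390-11042 in the same order: Gm29216 (the end of mt-Co1), Gm28661 (mt-Co2), Gm10925 (mt-Atp6), Gm28437 (mt-Co3), Gm28438 (mt-Nd3), Gm10222 (mt-Nd4l) and Gm28439 (the first 876 bases of mt-Nd4). Over the aligned bases, Gm28661, Gm10925, Gm28437, Gm10222 and Gm28439 were 100% identical to the mitochondrial gene. Reads from such stretches cannot be assigned to either place by their sequence. The 11 copies together took 3.58% to 16.2% of TPM, and with them the mitochondrial share became 12.7% to 55.2%, the highest again in B16F1 library 2.

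Where nearly the whole gene is repeated, the copy was listed at a TPM near that of the mitochondrial gene, most closely for Gm28661, Gm28437 and Gm10222. The ratio of Gm28661 to mt-Co2 had a median of 1.005 over the 30 libraries and a range of 1.004 to 1.005, and that of Gm28437 to mt-Co3 had a median of 1.004 and a range of 1.002 to 1.01. Gm10222 to mt-Nd4l had a median of 1.02 (0.976 to 1.03), Gm10925 to mt-Atp6 1.09 (1.01 to 1.10) and Gm28438 to mt-Nd3 1.08 (1.01 to 1.54). The level printed for each of these 5 mitochondrial genes is therefore the level listed at 1 of 2 near-identical places. For the partial copies the ratio was 0.558 at the median for Gm28439 to mt-Nd4 and 0.376 for Gm29216 to mt-Co1. The other 4 copies were low by comparison, with means of 62.4 TPM for Gm13341 (mt-Co2), 28.9 TPM for Gm13340 (mt-Co1), 9.43 TPM for Gm13339 (mt-Nd2) and 0.0895 TPM for Gm4076 (mt-Nd5). mt-Atp8 and the tRNA genes mt-Ts1, mt-Td, mt-Tk, mt-Tg and mt-Tr also lie within the repeated stretch and have no gene of their own annotated in the chromosome 1 copy. Gm29215, Gm10221 and Gm11808, listed at the outset as possible copies, were not among the copies that passed the limits of the search. Gm29215 was listed at 0 in every library.

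**Figure D2:**
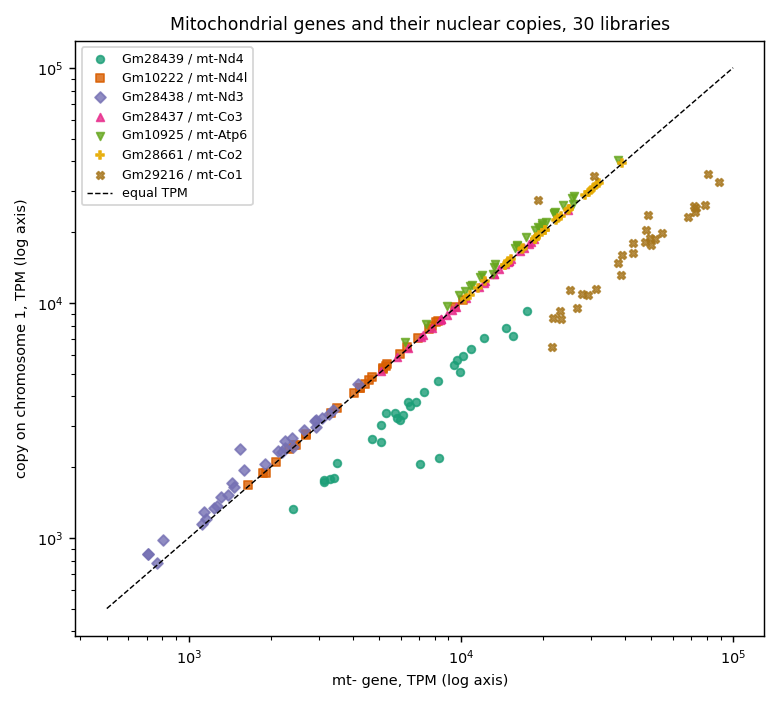
TPM of the 7 copies on chromosome 1 against TPM of the matching mitochondrial gene, both on log axes, with a point for each of 30 libraries and a dashed line at equal TPM. Copies of nearly whole genes lie on or just above the line, and the partial copies Gm28439 and Gm29216 lie below it except for 2 libraries of Gm29216.

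Those 2 libraries, Renca library 1 and B16F1 library 3, stood apart in several mitochondrial ratios. Gm29216 to mt-Co1 was 1.43 in Renca library 1 and 1.13 in B16F1 library 3, against 0.301 to 0.484 in the other 28. Gm28439 to mt-Nd4 was 0.290 and 0.263 in the same order, against 0.461 to 0.638. Both are partial copies, so each ratio sets part of a gene against the whole gene, the end of mt-Co1 and the start of mt-Nd4. The first ratio lay above the range of the other 28 libraries in both, and the second below it. The ratio of mt-Atp8 to mt-Atp6, neighbours that are transcribed as 1 mRNA, was 0.222 in Renca library 1 and 0.473 in B16F1 library 3, against 1.14 to 1.78 elsewhere. mt-Nd4l to mt-Nd4, also a shared mRNA, was 0.272 and 0.198, against 0.384 to 0.872. mt-Atp8 and mt-Nd4l are the upstream genes of these pairs. In both libraries each of these ratios was thus shifted toward the downstream (3′) sequence, and the cause was not tested. Results for Renca and B16F1 are therefore given with and without Renca library 1 and B16F1 library 3 where that changes them. Of the other 28 libraries, Renca library 2 came nearest to them in each of these ratios. It had 0.484 for Gm29216 to mt-Co1 and 0.384 for mt-Nd4l to mt-Nd4, and it stays in those results.

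Within the 13 mRNAs, mt-Co1 had the highest mean level, and 6 of the 7 complex I subunits had the lowest. This order is of levels listed under the mt- symbols alone. mt-Co2, mt-Atp6, mt-Co3, mt-Nd3 and mt-Nd4l were listed at a similar level at their copies too, and mt-Co1 and mt-Nd4 in part. Gm28437 (mt-Co3) averaged 12273 TPM and Gm10222 (mt-Nd4l) 4915 TPM, for example. The order with the copies added was not computed and may differ. mt-Co1 averaged 45468 TPM over the 30 libraries and took 23.9% of the mRNA sum (14.2% to 36.3%). It ranked first in 29 of 30 libraries, the exception being Renca library 1, in which mt-Co2 led. mt-Co2 and mt-Co3, the other core subunits of complex IV, averaged 21119 and 12225 TPM. mt-Atp8 and mt-Atp6, membrane subunits of ATP synthase (complex V), averaged 25271 and 17202 TPM, and mt-Cytb, the only mitochondrially encoded subunit of complex III, 18502 TPM. Of the 7 complex I subunits, mt-Nd1 averaged 14321 TPM, above mt-Co3, and the others lay below every other mRNA, with 8067 for mt-Nd2, 7452 for mt-Nd4, 7318 for mt-Nd6, 6462 for mt-Nd5, 4838 for mt-Nd4l and 1954 for mt-Nd3. mt-Nd3 ranked last in 28 libraries and mt-Nd4l in the other 2. The share of mt-Atp8 in the mRNA sum was the most uneven, from 2.16% in Renca library 1 to 18.002% in B16F1 library 1, while that of mt-Nd6 ran from 2.41% in LL2 library 3 to 14.6% in Renca library 1.

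The 2 rRNAs were listed below most mRNAs, with means of 2171 TPM for mt-Rnr1 and 1302 TPM for mt-Rnr2. They form the small and large subunits of the mitochondrial ribosome. Their range over libraries was wide: mt-Rnr1 ran from 255 TPM in B16F1 library 1 to 6899 TPM in B16F10 library 2, and mt-Rnr2 from 260 to 5122 TPM in the same 2 libraries.

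All 22 tRNA genes reached 1 TPM in every library, and a few held most of the level. mt-Ts1 (serine) averaged 3139 TPM, mt-Te (glutamate) 1806 TPM, mt-Tl1 (leucine) 801 TPM, mt-Tp (proline) 673 TPM and mt-Th (histidine) 534 TPM. The remaining 17, mt-Ta, mt-Tc, mt-Td, mt-Tf, mt-Tg, mt-Ti, mt-Tk, mt-Tl2, mt-Tm, mt-Tn, mt-Tq, mt-Tr, mt-Ts2, mt-Tt, mt-Tv, mt-Tw and mt-Ty, averaged between 6.41 TPM (mt-Tv) and 508 TPM (mt-Ts2). Genes this short, 59 to 75 bases, gain many TPM from few reads. The sources used here do not say whether strand was used in counting, so reads of the 9 genes of the minus strand, mt-Ts1, mt-Te, mt-Tp, mt-Tq, mt-Ta, mt-Tn, mt-Tc, mt-Ty and mt-Nd6, cannot be told apart here from reads of the opposite strand.

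**Figure D3:**
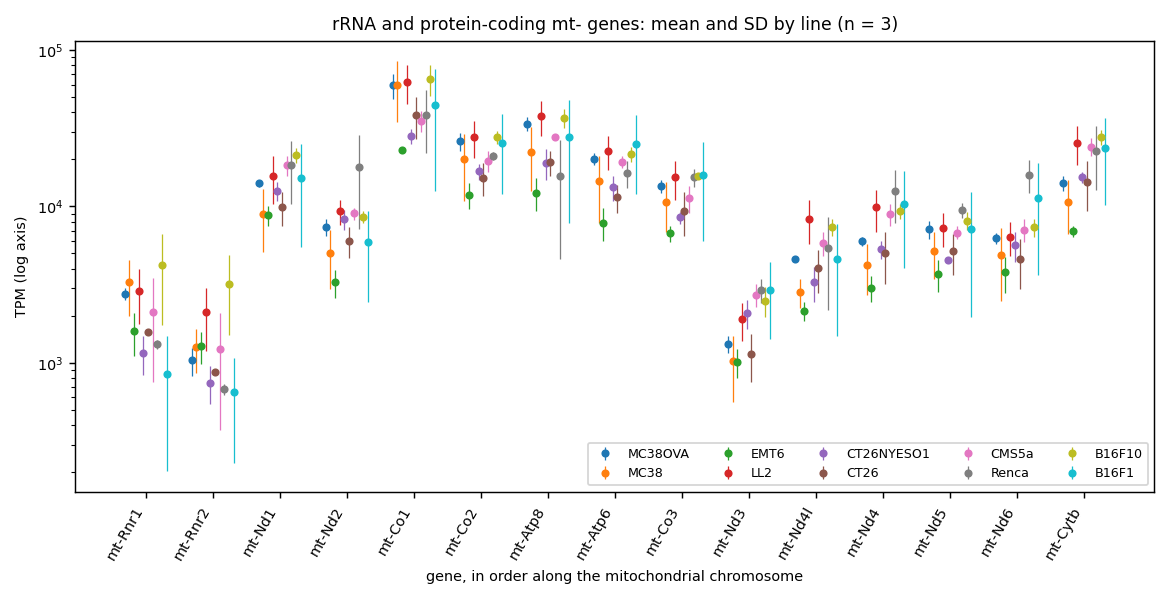
Mean TPM of the rRNA and protein-coding genes by line on a log axis, in their order along the chromosome, with bars for SD (n = 3) and a colour for each line. mt-Co1 is highest and mt-Nd3 lowest among the mRNAs in most lines, EMT6 is low across the mRNAs, and Renca is highest for mt-Nd2 and mt-Nd6.

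Over all 10 lines, 30 of the 37 genes were called in the limma F test (adjusted p by Benjamini-Hochberg, line means at least 1 apart in log2), beside 85.5% of all genes tested, so the mitochondrial genes were near the background. They were 11 of 13 mRNAs, both rRNAs and 17 of 22 tRNAs. The calls of mt-Atp8, mt-Co1 and mt-Nd1 ended with a pseudocount of 0.1 (limma, adjusted p = 0.057, 0.097 and 0.062) and with no filter on low values (0.088, 0.072 and 0.069), and those of mt-Atp8 and mt-Co1 also under median-ratio scaling (0.056 and 0.15). The mRNAs not called were mt-Co2 (adjusted p = 0.053) and mt-Co3 (adjusted p = 0.073) in the same limma test, 2 subunits of complex IV whose highest and lowest line means lay 1.23 and 1.22 apart in log2.

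EMT6 had the lowest mean share of mitochondrial mRNA of the 10 lines. All 13 mRNAs had negative fold changes against the other lines, with a median of -0.95, beside a median of 0.04 over all genes tested. In total 6 of 37 genes were lower, beside a background of 4.7% of all genes called lower, and 5 were higher, beside 10.2% called higher (14.9% in either direction). The lower mRNAs were mt-Cytb, mt-Nd4, mt-Nd2, mt-Atp6 and mt-Nd4l, from complexes III, I and V, together with the tRNA mt-Ts1.

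mt-Cytb had 6796, 7603 and 6495 TPM in EMT6, against 8310 to 38285 TPM (median 17393) in the other 27 libraries. Every EMT6 library lay below every other library, and the log2 fold change was -1.39 ± 0.30 (SE; limma, adjusted p = 0.00041). mt-Nd4 had 2409, 3520 and 3147 TPM in EMT6, against 3141 to 17498 TPM (median 6818) elsewhere. Its EMT6 values overlapped only the low end of the other lines, with a log2 fold change of -1.27 ± 0.28 (SE; limma, adjusted p = 0.00059). mt-Nd2 had 2769, 4014 and 3024 TPM in EMT6, against 3692 to 24995 TPM (median 7883) in the others, which overlapped with 1 EMT6 library, and its fold change was -1.25 ± 0.32 (SE; limma, adjusted p = 0.0019). mt-Nd4l and mt-Ts1 were no longer called without EMT6 library 1, at -1.02 (limma, adjusted p = 0.052) and -0.94 (adjusted p = 0.066). Of the 7 chromosome 1 copies 5 were lower in EMT6. Their sequence is identical or nearly so to that of the mitochondrial genes, so this is not a second observation.

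The 5 higher genes in EMT6 were all tRNAs: mt-Tr, mt-Tf, mt-Tn, mt-Ta and mt-Tc. mt-Ta, mt-Tn and mt-Tc, the tRNAs of alanine, asparagine and cysteine, lie next to each other on the minus strand. mt-Ta, given after its values were seen, had 690, 653 and 812 TPM in EMT6, against 114 to 702 TPM (median 251) in the other libraries. EMT6 was thus at the top of the range, overlapping with MC38 library 3 at 702 TPM, and the log2 fold change was 1.42 ± 0.24 (SE; limma, adjusted p = 2e-05).

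Nuclear genes of the same complexes did not move with the mRNAs in EMT6. Of 81 tested nuclear subunits of complexes I to V, 0 were higher and 1 was lower in the limma test, with a median of 0.04. The lower one was Cox6a2, a heart and muscle type subunit of complex IV, at -1.45 ± 0.25 (SE; limma, adjusted p = 2.1e-05). None of 79 mitochondrial ribosomal protein genes was called in limma. Ppargc1a, a coactivator that drives mitochondrial gene programmes, was lower by limma (-1.30 ± 0.22, SE), although at -0.47 it was no longer called without the B16 lines, in which it was high. Leukocyte genes summed to 1026 to 1390 TPM in EMT6, against 141 to 2628 TPM in the other libraries, and 10 of 10 dissociation and stress genes were higher, summing to 908 to 1213 TPM, against 124 to 640 TPM. Of 7 fibroblast genes 6 were higher and 1 lower, with a sum of 1723 to 2706 TPM, against a median of 705 TPM in the others, and 3 of 7 epithelial genes were higher, at 622 to 712 TPM, against a median of 4.58 TPM. The part of these in the mitochondrial values was not tested.

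In LL2 1 mitochondrial gene was called, and nuclear genes of the respiratory chain were called lower. Of its 13 mRNAs, 12 had positive fold changes, with a median of 0.49 beside -0.06 over all genes, but only mt-Nd4l was called, making 1 of 37 mitochondrial genes beside a background of 7.98% called higher and 14.5% in either direction. mt-Nd4l, a small core subunit of complex I, had 5371, 10154 and 9472 TPM in LL2, against 1652 to 8263 TPM (median 4272) in the other libraries. The upper 2 LL2 libraries lay above all others and the first within their range. The log2 fold change of 1.01 ± 0.33 (SE; limma, adjusted p = 0.014) stood just past the threshold and passed below it when single libraries were left out, to 0.84 without LL2 library 2 (limma, adjusted p = 0.1).

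Of the 81 nuclear subunits, 15 were lower and 0 higher in LL2 by limma, beside 6.53% of all genes called lower. Their median was -0.69 and 2 of 81 were positive. They included 7 of 36 complex I subunits, with Ndufc2 at -1.31 ± 0.18 and Ndufa5 at -1.29 ± 0.24, and Uqcrq of complex III at -1.55 ± 0.25 (SE each). In complex IV, Cox6a2 was lower at -1.60 ± 0.25 and Cox6a1 at -1.02 ± 0.21, and in complex V Atp5j2 at -1.25 ± 0.21 and Atp5o at -1.23 ± 0.21 (SE each). The call of Cox6a1 ended in 7 alternatives, at -0.88 to -0.99, among them rescaling to genes other than mt- (-0.90), leaving out the B16 lines (-0.91) and leaving out LL2 library 2 (-0.88) or 3 (-0.98). Of the 79 mitochondrial ribosomal protein genes 5 were lower, among them Mrpl51 at -1.13 ± 0.19 (SE). The count of 15 was 31 without LL2 library 1, 9 without LL2 library 2 and 10 without Renca library 1, with 0 higher in each. The nuclear subunits together took 1.19%, 0.853% and 0.890% of TPM in LL2, and a line mean of 0.976% was the lowest of the 10. LL2 libraries held 3296 to 4271 TPM of 7 fibroblast genes, against 4.75 to 5745 TPM in the others, and 1282 to 1572 TPM of leukocyte genes, which was not tested as a source.

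In Renca 4 mitochondrial genes were called higher and 5 lower, counts near the background. Higher were mt-Nd6, mt-Nd2, mt-Te and mt-Tr, and lower were mt-Atp8, mt-Tm, mt-Tf, mt-Tq and mt-Tl1, together 9 of 37 beside a background of 22.9% in either direction (12.4% higher, 10.5% lower). mt-Nd6, the only mRNA of the minus strand, had 19821, 15572 and 12378 TPM in Renca, against 2714 to 19092 TPM (median 6100) in the other libraries. Renca overlapped there with B16F1 library 2, which held the 19092 TPM, and the log2 fold change was 1.43 ± 0.31 (SE; limma, adjusted p = 0.00032). mt-Te, its neighbour on the same strand, had 5275, 5452 and 4100 TPM in Renca, against 592 to 4170 TPM (median 1371) in the others, with 1.90 ± 0.30 (SE; limma, adjusted p = 4.6e-06). Again B16F1 library 2 was the only one inside the Renca range.

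mt-Nd2 had 5494, 23282 and 24995 TPM in Renca, against 2769 to 10346 TPM (median 7321) in the others. Renca libraries 2 and 3 lay above every other library and library 1 amid them, so the fold change of 1.18 ± 0.32 (SE; limma, adjusted p = 0.0023) was lost without library 2 (0.85, adjusted p = 0.052) or library 3 (0.80, adjusted p = 0.063). mt-Atp8 had 2927, 22330 and 21565 TPM in Renca, against 9958 to 50315 TPM (median 26743) in the others. Only library 1 was low, and the fold change of -1.10 ± 0.41 (SE; limma, adjusted p = 0.023) became -0.13 without it (adjusted p = 0.78). mt-Tq and mt-Tl1 were likewise not called without Renca library 1 and B16F1 library 3, at -0.69 and -0.10. Among nuclear genes Pnpt1, a polynucleotide phosphorylase of the mitochondrion that takes part in RNA turnover, was lower by limma (-1.87 ± 0.23, SE). Of the 81 nuclear subunits 3 were higher, Cox6b2 (1.52 ± 0.21), Ndufa7 (1.22 ± 0.17) and Uqcrq (1.12 ± 0.25, SE each), and without Renca library 1 the count was 1 higher and 1 lower. Renca libraries held 1471 to 2194 TPM of 7 epithelial genes, against 0.399 to 712 TPM elsewhere, with leukocyte genes at 585 to 659 TPM, and the part of this was not tested.

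B16F10 had higher levels of both rRNAs and of 7 tRNAs. The 9 called genes were all higher, beside 5.28% of all genes called higher, and 0 were lower beside 23.2% (28.5% in either direction). mt-Rnr2 had 2019, 5122 and 2415 TPM in B16F10, against 260 to 2944 TPM (median 952) in the other libraries, an overlap with the upper end of the others. Its log2 fold change was 1.59 ± 0.34 (SE; limma, adjusted p = 0.00021). mt-Rnr1 had 2097, 6899 and 3631 TPM, against 255 to 4743 TPM (median 1572), and its 1.16 ± 0.37 (SE; limma, adjusted p = 0.0074) was lost without B16F10 library 2 (0.72, adjusted p = 0.15). The tRNAs were mt-Tf, mt-Tm, mt-Tl1, mt-Tq, mt-Tt, mt-Tw and mt-Ty, and for mt-Tm, mt-Tl1, mt-Tq, mt-Tt and mt-Tw every B16F10 library lay above the other 27. The share of all genes tested without such overlap was not computed, so whether this is unusual for B16F10 is not known. mt-Tw (tryptophan), given after its values were seen, had 169, 164 and 166 TPM in B16F10, against 35.4 to 112 TPM (median 62.1) elsewhere.

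All 13 mRNAs had positive fold changes in B16F10, with a median of 0.55, but 0 of 13 were called by limma, 4 of them at an unadjusted p under 0.05. All genes together had a median of -0.48 in this comparison, which median-ratio scaling over non-mitochondrial genes brought to -0.21. Under that scaling 23 of 37 mitochondrial genes were higher, 7 of them mRNAs. The share of all called genes that were higher became 36.7% instead of 18.6%, so calls shifted upward across the table. The share of all tested genes called higher under that scaling is not given here. The 23 of 37, and the count of nuclear subunits under the same scaling, therefore stand without a background. Nuclear subunits ran the same way, with 11 of 81 higher and 1 lower and a median of 0.51; 40 were higher and 1 lower under median-ratio scaling, and 6 higher without B16F10 library 1. Sdhb, the iron-sulfur subunit of complex II, rose by 1.80 ± 0.17, Ndufv3 of complex I by 1.44 ± 0.24, Cox5b of complex IV by 1.28 ± 0.21 and Atp5o of complex V by 1.15 ± 0.21 (SE each, limma). Ppargc1a rose by 4.74 ± 0.22 (SE). Of 16 mitochondrial transcription and replication genes 3 were lower, Mterf3, Mterf1a and Polg2, with a list median of -0.57, and of 29 RNA processing genes 5 were lower, with a list median of -0.39. Both lists were near the all-gene median of -0.48 and the 23.2% of all genes called lower. The RNA processing genes were led by Hsd17b10 (-1.41 ± 0.17, SE), a subunit of the enzyme that trims tRNA 5′ ends. These fold changes shrank under median-ratio scaling, at which Mterf3, Mterf1a, Polg2 and Hsd17b10 lay between -0.94 and -0.67 and were not called. Melanocyte genes summed to 9793 to 14141 TPM in B16F10, and red-cell genes to 13830 to 77475 TPM, against 223 to 41334 TPM in the others. Of 10 leukocyte genes 9 were lower and 1 higher, with a list median of -2.08 and a sum of 483 to 689 TPM. The part of these in the mitochondrial and nuclear values was not tested.

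**Figure D4:**
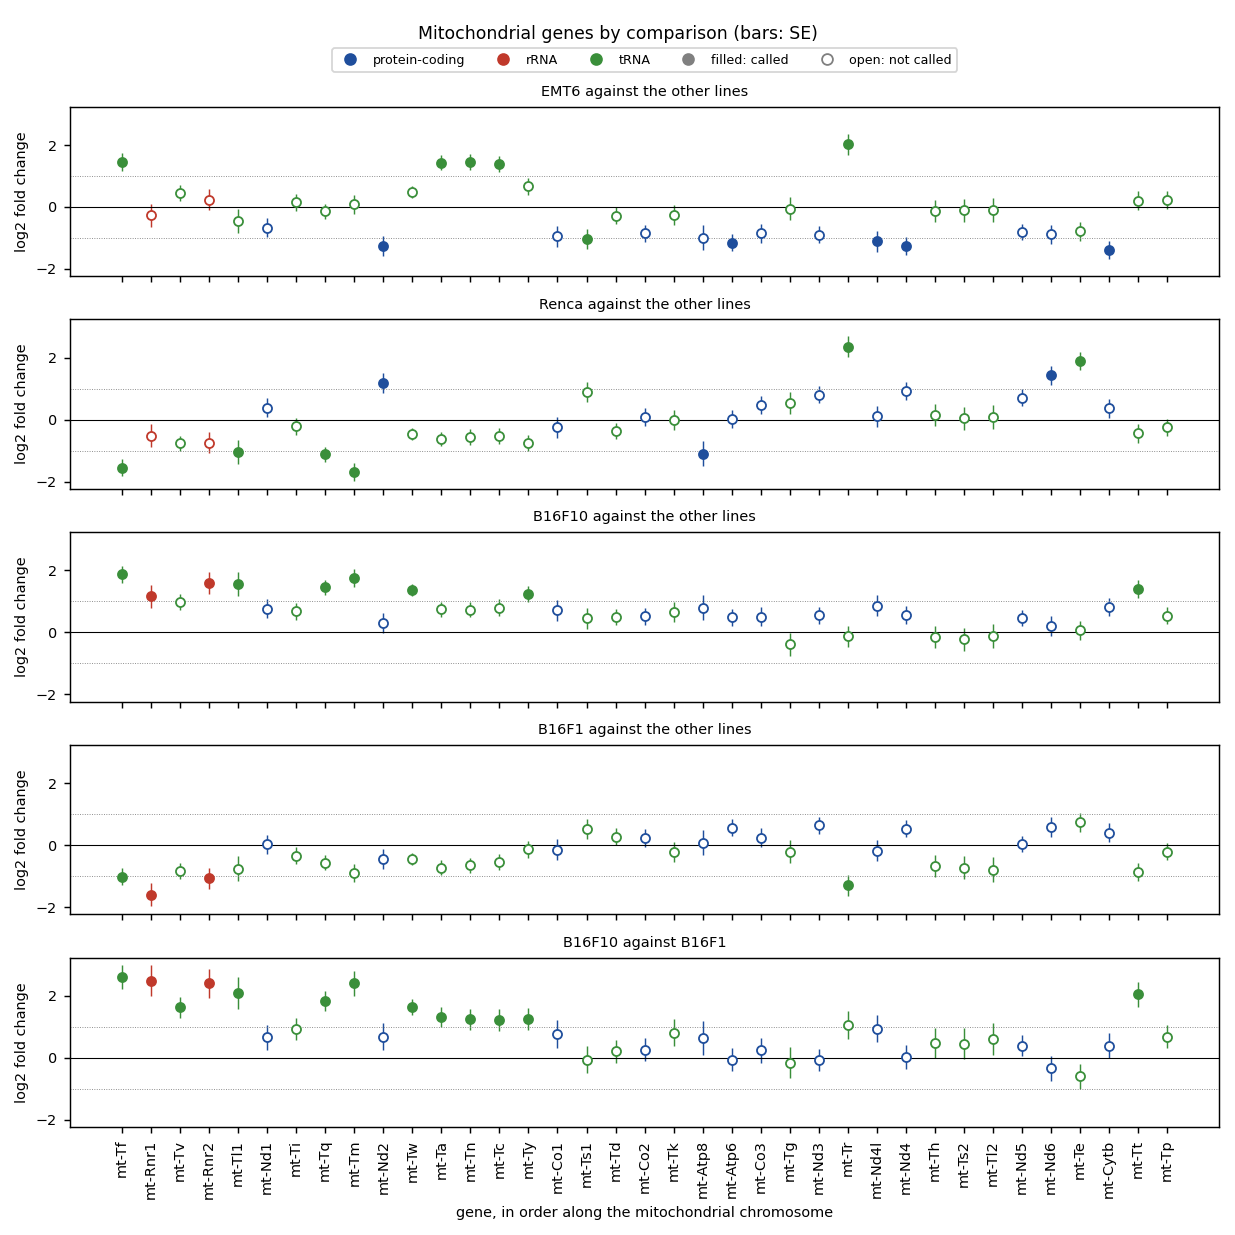
Log2 fold change of each of the 37 genes, in order along the mitochondrial chromosome, in 5 comparisons, with bars for SE and filled points for called genes. EMT6 has mRNAs below and 5 tRNAs above the lines at -1 and 1, and B16F10 has both rRNAs and several tRNAs above, most of all against B16F1.

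In B16F1 both rRNAs were called lower, a call that rests on library 1. mt-Rnr1 had 255, 1532 and 754 TPM in B16F1, against 845 to 6899 TPM (median 1814) in the others, and mt-Rnr2 had 260, 1094 and 595 TPM, against 506 to 5122 TPM (median 995). For mt-Rnr1, B16F1 libraries 1 and 3 lay below every library of another line, for mt-Rnr2 library 1 alone, and the rest overlapped. The fold changes were -1.60 ± 0.37 and -1.07 ± 0.34 (SE each; limma, adjusted p = 0.00063 and 0.0093). Without B16F1 library 1 they were -0.91 (limma, adjusted p = 0.044) and -0.53 (adjusted p = 0.23), and neither was called. mt-Rnr2 was also not called under median-ratio scaling (-0.90; limma, adjusted p = 0.078). With mt-Tf and mt-Tr, 4 of 37 genes were lower, beside 13.2% of all genes called lower, and 0 higher beside 8.52% (21.7% in either direction). Without Renca library 1 and B16F1 library 3, mt-Tf and mt-Tr were not called, at -0.70 and -0.72. The count of 4 was 8 without B16F1 library 1 and 14 without B16F1 library 2. Of 81 nuclear subunits 13 were higher in B16F1 and 0 lower, a count that was 35 without library 2, 5 without library 1 and 4 without library 3. Leukocyte genes were lower for 10 of 10, summing to 141 to 406 TPM in B16F1, against 483 to 2628 TPM in the others, and melanocyte genes higher for 9 of 9, at 1799 to 7797 TPM. Fibroblast genes were lower for 7 of 7 and red-cell genes for 5 of 5, and the part of these in the mitochondrial and nuclear values was not tested.

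Set directly against each other, B16F10 and B16F1 differed in rRNAs and tRNAs. B16F10 was higher in 13 of 37 mitochondrial genes and lower in 0, beside 4.53% of all genes called higher and 16.4% called lower (20.9% in either direction). mt-Rnr1 differed by 2.49 ± 0.50 and mt-Rnr2 by 2.40 ± 0.46 (SE each; limma, adjusted p = 0.00021 and 0.00013), with no overlap of the 3 B16F10 and 3 B16F1 libraries for either gene. The other 11 were mt-Ta, mt-Tc, mt-Tf, mt-Tl1, mt-Tm, mt-Tn, mt-Tq, mt-Tt, mt-Tv, mt-Tw and mt-Ty, at 1.21 to 2.61. None of the 13 mRNAs was called by limma, with 1 at an unadjusted p under 0.05 and a median of 0.38. Without B16F1 library 2 the count was 23 genes, and without Renca library 1 and B16F1 library 3 the tRNAs mt-Ta, mt-Tc, mt-Tn and mt-Ty were not called. In this pair the share of all called genes that were higher was 21.7%, and 35.4% under median-ratio scaling, and 6 of 16 mitochondrial transcription and replication genes were lower in B16F10, a count that was 1 under median-ratio scaling. The haemoglobin genes took 1.38% to 7.70% of TPM in B16F10 and 0.0222% to 0.391% in B16F1, and their part was not tested.

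The lines with an added suffix were compared with the lines whose name they carry. Between MC38OVA and MC38, 0 of 37 mitochondrial genes were called by limma and 0 had an unadjusted p under 0.05, beside 1.31% of all genes called (1.14% higher, 0.167% lower). The mRNAs had a median fold change of 0.50, and all 13 were positive. mt-Co1, the most abundant, had 72170, 51783 and 54607 TPM in MC38OVA, against 42747, 47508 and 88512 TPM in MC38, so the lines overlapped. Between CT26NYESO1 and CT26, mt-Tq (glutamine) was the single call of 37 by limma, beside 2.27% of all genes (0.379% higher, 1.89% lower), with 125, 75.3 and 76.5 TPM in CT26NYESO1, against 30.6, 39.2 and 52.3 TPM in CT26. These did not overlap, and the log2 fold change was 1.15 ± 0.32 (SE; limma, adjusted p = 0.032). Without CT26NYESO1 library 1 or CT26 library 1 the fold change was 0.92 or 0.97 and not called (limma, adjusted p = 0.19 and 0.2). Without CT26NYESO1 library 2 or CT26 library 2 it was 1.28 or 1.14, close to the full value or above it, and the adjusted p alone missed the threshold (0.051 and 0.08), as it did with no filter (0.07), median-ratio scaling (0.062) and rescaling to genes other than mt- (0.08). The difference between the MC38 pair and the CT26 pair was called for 0 of 37 genes by limma, with 2 at an unadjusted p under 0.05, beside 2.62% of all genes (2.22% higher, 0.396% lower).

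Against the other 9 line means, MC38OVA and MC38 shared higher mt-Tp. mt-Tp had 1749, 1316 and 1246 TPM in MC38OVA and 925, 1099 and 1683 TPM in MC38. The median over all 30 libraries, these included, was 546 TPM. MC38 overlapped other lines, as its library 1 lay below B16F1 library 2 (1021 TPM) and B16F10 library 2 (953 TPM). The fold changes were 1.47 ± 0.28 in MC38OVA and 1.19 ± 0.28 in MC38 (SE each; limma, adjusted p = 0.00012 and 0.0012), that of MC38 falling to 0.94 without MC38 library 3. MC38OVA had 2 of 37 genes called, with mt-Tf the other at 1.01 ± 0.28 (SE), beside 13.8% of all genes (10.2% higher, 3.59% lower), and MC38 1 of 37 beside 12.3% (8.24% higher, 4.06% lower). The mt-Tf call in MC38OVA stood at the fold threshold and ended in 12 alternatives, among them median-ratio scaling (0.94), leaving out MC38OVA library 1 (0.93) and leaving out Renca library 1 (0.97). CT26 had 3 lower tRNAs (mt-Tf, mt-Ti and mt-Ty) of 37 genes, beside 13.2% (8.25% higher, 4.91% lower), and CMS5a 1 lower (mt-Tr), beside 13.7% (9.23% higher, 4.49% lower). CT26NYESO1 had 0 of 37 called by limma, with 12 at an unadjusted p under 0.05, beside 12.6% of all genes (6.84% higher, 5.71% lower).

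Ratios within a library do not depend on the scaling of the library, and 5 of them were compared across the lines by a permutation test of the F statistic of log2 ratios (100000 permutations of the library labels, adjusted by Benjamini-Hochberg over the 5). mt-Rnr1 to mt-Rnr2 differed between lines, with an adjusted permutation p of 5e-05 from the smallest p the permutations can give. The ratio was 2.75 ± 0.768 in MC38OVA and 2.58 ± 0.208 in MC38, against 1.22 ± 0.215 in B16F1, 1.23 ± 0.134 in EMT6 and 1.30 ± 0.237 in B16F10 (SD, n = 3 each). The MC38OVA and MC38 libraries, at 2.18 to 3.62, all lay above those of the other 8 lines, and Renca, CT26 and CMS5a, at 1.68 to 1.97, stood between them and the lowest lines.

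mt-Nd6 to mt-Cytb also differed (adjusted permutation p = 0.0012). It was 0.541 ± 0.123 in EMT6 and 0.920 ± 0.741 in Renca, against 0.252 ± 0.0155 in LL2 and 0.264 ± 0.00602 in B16F10 (SD, n = 3 each). The Renca mean rests on library 1 at 1.77, with 0.551 and 0.436 in the other 2 libraries. mt-Rnr2 to mt-Co1 was 0.0558 ± 0.0110 in EMT6 and 0.0488 ± 0.0234 in B16F10, against 0.0150 ± 0.00386 in B16F1 (SD, n = 3 each; adjusted permutation p = 0.018). mt-Nd4l to mt-Nd4 was 0.843 ± 0.0256 in LL2, against 0.406 ± 0.147 in Renca (SD, n = 3 each; adjusted permutation p = 0.029), and did not pass without Renca library 1 (0.060) or library 2 (0.058). mt-Atp8 to mt-Atp6 ran from 0.900 ± 0.595 in Renca to 1.71 ± 0.0517 in B16F10 (SD, n = 3 each), and did not pass (adjusted permutation p = 0.076). Without both Renca library 1 and B16F1 library 3 its range of line means was smaller, 0.47 in log2 in place of 1.29, and passed (0.031).

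**Figure D5:**
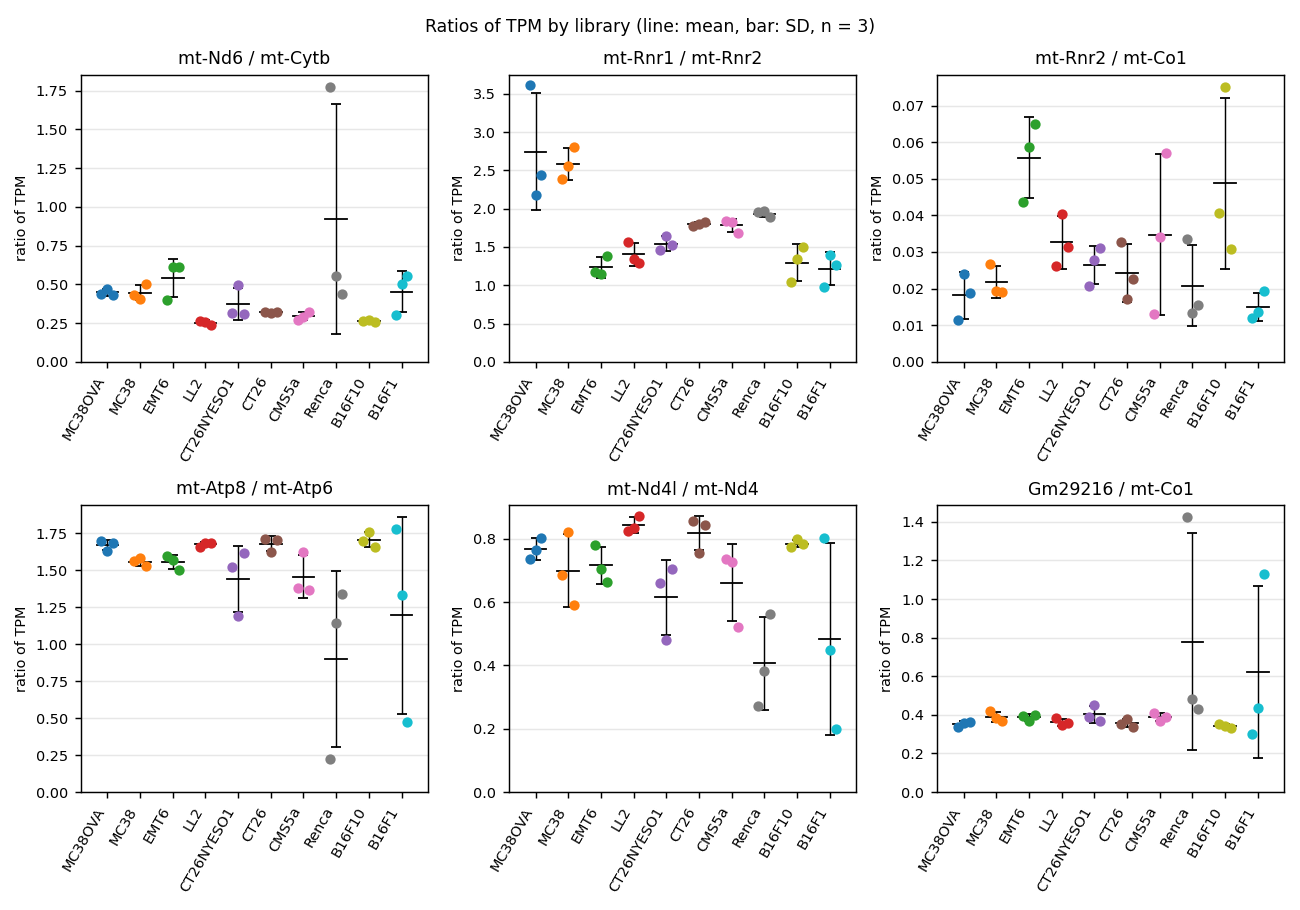
Ratios of TPM within each library, by line, for 5 pairs of mitochondrial genes and for Gm29216 to mt-Co1; points are libraries, horizontal lines are means and bars are SD (n = 3). MC38OVA and MC38 are above all other lines for mt-Rnr1 to mt-Rnr2, and single libraries of Renca and B16F1 stand far from the rest for mt-Atp8 to mt-Atp6 and Gm29216 to mt-Co1.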

How the data were processed

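Expression was analysed from a deposited table of TPM per gene symbol, in which every column sums to 1000000 and matched 1 of the 30 labelled libraries; 0 columns were left unmatched and 0 pairs of libraries were identical. Trim Galore 0.6.5, STAR 2.7.3a, StringTie 2.1.2 and mm10 are named in the submitters' processing notes, without roles; the annotation, the handling of reads with several matches and the use of strand are not given in the sources used here. TPM keeps no read depth, so depth is unknown and no counting interval is given. TPM was tested with limma 3.58.1 (R 4.3.3; trend, line means, 20 residual degrees of freedom) as log2(TPM + 1), and fold changes on this scale understate those of low genes. On simulated data for the LL2 comparison, 96.5% of the genes given a change of 1.5 in log2 were recovered. There were 2 false calls over 17944 genes. The changes were placed only in a sample of genes above a minimum mean level, with independent normal noise and no other line differences. The simulation therefore checks the code and does not give the error rates of the real tests. Nuclear copies were found with BLAST 2.17.0 (E-value limit 1e-10) in GENCODE M21 transcripts, which also gave coordinates and sequences. Nothing says that the 3 libraries of a line came from separate mice, so p-values measure the spread between these libraries, which may be technical. The members, the gene lists and the ratios were chosen with earlier results of these data known. All mRNAs and rRNAs are named; tRNAs that reach 1 TPM in 3 libraries are named and the 5 with the highest mean have levels, and other tRNAs with values, and more than 3 called genes of a comparison, were chosen after their values were seen. Of nuclear lists, members with the largest fold changes are named. Alternatives were a pseudocount of 0.1, no filter on low values, median-ratio scaling, rescaling to genes other than mt-, the replicate number as a block, adding the listed nuclear copies to the share, its ratio to all other genes, leaving out the B16 lines or each library in turn and, chosen after seeing the data, leaving out Renca library 1 and B16F1 library 3 together and adding the sequence-matched nuclear copies.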

Additional observations from a re-analysis of the deposited data

How the results depend on the processing

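Among the single genes followed through the alternatives, no fold change reversed its direction. Reversal was not recorded for counts, shares or ratios. Counts of called mitochondrial genes per line against the others moved by over 1.5 times as follows. A pseudocount of 0.1 gave 3 in MC38 and 2 in CMS5a. Median-ratio scaling gave 3 in MC38, 1 in MC38OVA, 5 in CT26, 3 in CT26NYESO1, 3 in CMS5a, 2 in B16F1, 23 in B16F10 and 0 between CT26NYESO1 and CT26. Rescaling to genes other than mt- gave 18 in EMT6, 3 in LL2, 5 in CT26, 3 in CT26NYESO1, 2 in CMS5a and 0 between CT26NYESO1 and CT26, and no filter on low values gave 0 for that pair. Without the B16 lines the counts were 2 in MC38, 2 in LL2, 1 in CT26NYESO1, 2 in CMS5a and 2 between CT26NYESO1 and CT26. Without Renca library 1 and B16F1 library 3 they were 1 in MC38OVA, 2 in CT26NYESO1 and 2 between CT26NYESO1 and CT26. The cause was not tested.

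Leaving out 1 library at a time gave 26 to 36 calls in the F test, 1 to 7 in MC38 (7 without MC38 library 1), 1 to 2 in MC38OVA, 9 to 13 in EMT6, 0 to 2 in LL2, 2 to 4 in CT26, 0 to 3 in CT26NYESO1 (3 without its library 1), 0 to 3 in CMS5a (0 without its library 2, 3 without its library 3), 7 to 10 in Renca, 3 to 14 in B16F1, 8 to 10 in B16F10, 0 between MC38OVA and MC38, 0 to 2 between CT26NYESO1 and CT26, and 10 to 23 between B16F10 and B16F1. Line means of the share ran from 14.1% to 20.9% in MC38, 21.3% to 23.7% in MC38OVA, 9.77% to 11.2% in EMT6, 24.3% to 30.6% in LL2, 13.4% to 17.4% in CT26, 14.4% to 15.7% in CT26NYESO1, 19.9% to 21.99% in CMS5a, 20.7% to 26.5% in Renca, 15.4% to 28.8% in B16F1 and 26.5% to 29.7% in B16F10. The log2 range of line means was 1.08 to 1.98 for mt-Nd6 to mt-Cytb, 1.10 to 1.30 for mt-Rnr1 to mt-Rnr2, 1.76 to 2.104 for mt-Rnr2 to mt-Co1, 0.71 to 1.76 for mt-Atp8 to mt-Atp6 and 1.02 to 1.499 for mt-Nd4l to mt-Nd4. Without B16F1 library 3 the mt-Atp8 ratio passed, at 1.29.

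Adding the sequence-matched nuclear copies gave shares of 32.1% in MC38OVA, 14.6% in EMT6, 37.2% in LL2, 21.2% in CT26, 21.2% in CT26NYESO1, 28.6% in CMS5a, 32.0% in Renca and 38.5% in B16F10; the list of copies named at the outset gave 32.1%, 14.7%, 37.2%, 21.2%, 21.2%, 28.6%, 32.0% and 38.5% in the same order. As a ratio to all other genes the values were 29.6% in MC38OVA, 36.9% in LL2, 17.99% in CT26NYESO1, 26.2% in CMS5a, 30.1% in Renca and 39.0% in B16F10. Without the B16 lines the range of mt-Rnr2 to mt-Co1 was 1.66 and no longer passed (adjusted permutation p = 0.057), and that of mt-Atp8 to mt-Atp6 was 1.27 and passed (0.007); without Renca library 1 and B16F1 library 3 the range of mt-Atp8 to mt-Atp6 was 0.47 and passed. With the replicate number as a block, the F test called 32 genes in place of 30 and no other count changed. Libraries of the same number did not deviate together on average (mean correlation 0.0043 over 135 pairs, 46 of them over 0.1). Of 30 libraries 10 correlated best with their own number. The numbers thus gave no sign of pairing, but such correlations cannot exclude that libraries of the same number were handled together. Depth is unknown in TPM, and 3 libraries a line limit every comparison.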

Other observations

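Across the 30 libraries the mRNAs that moved most alike were mt-Cytb and mt-Nd4, with a Pearson correlation of log2 TPM of 0.948, and mt-Atp6 and mt-Co2, at 0.943. The least alike were mt-Atp8 and mt-Nd6, at 0.0679. Renca library 1 held both the lowest mt-Atp8 of the 30 libraries (2927 TPM) and the highest mt-Nd6 (19821 TPM), and the correlation without it was not computed. These are descriptions over libraries that share lines, scaling and 3 libraries per line.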
